A study of Vitis riparia with 12 samples.

Results

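The genes described here are 10 identifiers of the 29970 in each deposited file, listed for cold acclimation as CBF/DREB1 factors, the dehydrins DHN1 and DHN2, and galactinol synthases. They were chosen by identifier with earlier results of these data known, and no threshold on measured values was applied. The files give no gene names, and 0 identifiers matched the reference gene table. Which identifier belongs to which of these classes is therefore not annotated here, and the results are ordered by locus and given by identifier. The libraries come from shoot tips, spanning 4 nodes, of the grapevine Vitis riparia (genotype PI588259) grown in pots in a greenhouse set to 25 °C by day and 20 °C by night. SD21 vines had spent 21 days and SD7 vines 7 days under a short photoperiod of 13 h, and LD21 and LD7 vines stayed under 15 h until the same days. Each group has 3 libraries, and each replicate came from 5 vines that were 6 years old. All the vines share 1 genotype, tips were taken in the morning, and the vines had come out of cold storage before they were grown, with no cold named during the treatments.

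Cold acclimation is the gain in freezing tolerance that many woody plants begin as days shorten and complete in the cold. CBF/DREB1 proteins are AP2/ERF transcription factors that cold induces within hours. In Arabidopsis they bind C-repeat elements and activate genes such as those of dehydrins and galactinol synthases. Dehydrins are hydrophilic late embryogenesis abundant proteins that protect membranes and enzymes when cells lose water. Galactinol synthase joins UDP-galactose to myo-inositol and so starts the synthesis of raffinose family oligosaccharides, sugars that act as protectants. The series asks how shoot tips respond to the photoperiod, here without cold.

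Values are FPKM, the fragments of a gene relative to its transcript length and to the mapped total. Within groups, libraries correlated at 0.971 to 0.986 on log2(FPKM + 1). The 10 most abundant genes held 16.2% to 21.3% of the FPKM in SD21 libraries, 4.81% to 5.85% in LD21, 9.39% to 9.94% in SD7 and 8.48% to 9.05% in LD7. The median gene had a log2 difference of -0.30 in SD21 against LD21. Quantile normalization put it at 0.02 and median-ratio scaling at -0.06, as both centre the libraries, and whether the shift comes from the relative unit was not tested. None of the calls of the 8 tested members given below changed with either scaling. The identity of the tissue could not be checked against marker genes, as no names are given. In bulk tips, fewer cells that express a gene and less RNA per cell cannot be told apart.

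Genes entered the test with limma, 21848 in all, if 3 or more libraries held them at 1 FPKM or above, and 8 of the 10 did. VIT_03s0038g04390, VIT_14s0060g00760 and VIT_14s0060g00790 passed this limit only through SD21, with 0, 2 and 2 libraries at 1 FPKM outside it, so their entry was tied to being high there. In SD21 against LD21, 5 of the 8 tested members were called higher and 0 lower at an adjusted p under 0.05 (limma, Benjamini-Hochberg). The counts were also 5 and 0 at an unadjusted p under 0.05. Over all genes tested, 24.6% were called higher and 43.7% lower. The count of 5 fell to 3 without SD21 replicate 3, and to 3 with a limit of 5 FPKM in place of 1. Without the limit on low values, 6 of the 10 were called higher and 0 lower, against 21.8% and 36.7% of 27306 genes, and the median log2 difference was 1.67 over the 10 genes and -0.14 over all. The plot of levels shows the libraries of every member.

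**Figure D1:**
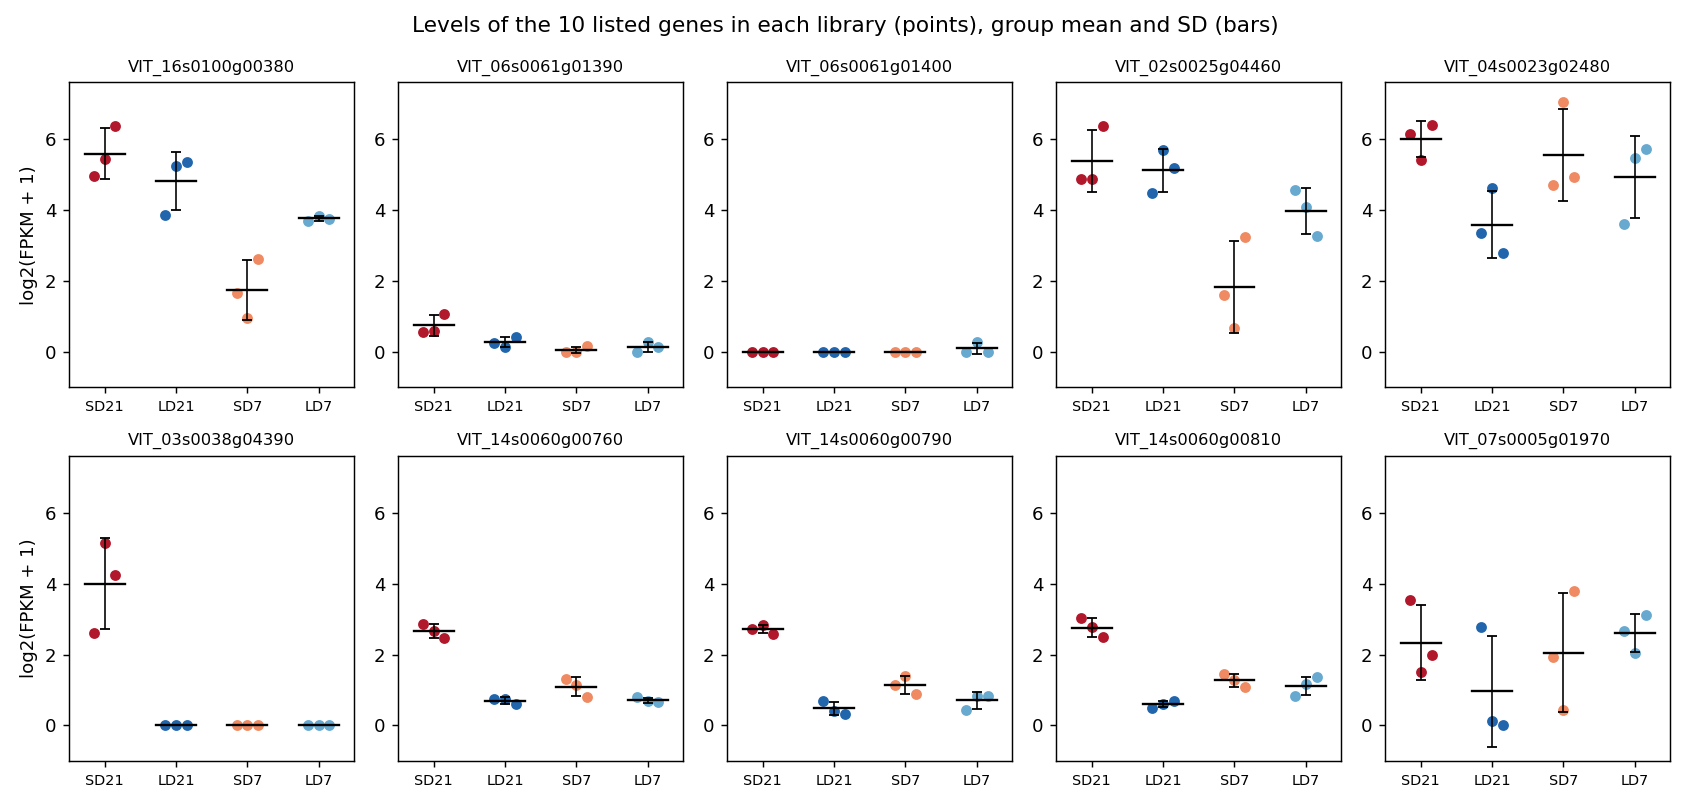
Level of each of the 10 genes as log2(FPKM + 1) (vertical axis) in the libraries of SD21, LD21, SD7 and LD7 (horizontal axis), with points for libraries and bars for the group mean and SD (n = 3). VIT_03s0038g04390 is above 0 only in SD21, the 3 chromosome 14 genes stand highest in SD21, and VIT_16s0100g00380 and VIT_02s0025g04460 stand lowest in SD7.

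For 5 of the 10 genes, the FPKM of every library fell within 0.03 reads of whole multiples of 1 step once the libraries' relative depths (1.00 to 1.58) were taken into account. The read equivalents below are those smallest whole multiples, and they show how many reads probably stand behind a value. VIT_02s0025g04460 and the 3 chromosome 14 genes did not fall on such steps, and how reads shared by similar loci were divided is not given in the sources used here.

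The 3 chromosome 14 genes were low under long days and several-fold more abundant after 21 short days. VIT_14s0060g00760 (chromosome 14, 624390 to 626171 in the coordinates of the files, whose build is not given) had 6.27, 5.28 and 4.55 FPKM in SD21 libraries and 0.691, 0.675 and 0.509 in LD21 libraries. VIT_14s0060g00790 (645171 to 647263) had 5.59, 6.13 and 5.03 FPKM in SD21 and 0.621, 0.339 and 0.259 in LD21. VIT_14s0060g00810 (657005 to 659033) had 7.16, 5.82 and 4.61 FPKM in SD21 and 0.418, 0.530 and 0.607 in LD21. For each gene every SD21 library lay above every LD21 library, and this held for 25.3% of all genes tested. The ratios of mean FPKM were 8.59, 13.7 and 11.3 in SD21 over LD21, in the order of the genes.

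On log2(FPKM + 1), a scale that understates the change of such low genes, VIT_14s0060g00760 rose by 1.96 ± 0.17 (SE, adjusted p = 1.2e-06) in SD21 against LD21. VIT_14s0060g00790 rose by 2.23 ± 0.18 (adjusted p = 8.6e-07) and VIT_14s0060g00810 by 2.16 ± 0.19 (adjusted p = 1.3e-06). With a pseudocount of 0.1 the differences were 2.91, 3.55 and 3.26. The calls were kept with each library left out.

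The day 7 libraries lay between these levels or beside the lower one. VIT_14s0060g00760 had 1.503, 1.22 and 0.733 FPKM in SD7 and 0.734, 0.606 and 0.570 in LD7. VIT_14s0060g00790 had 1.21, 1.62 and 0.839 FPKM in SD7 and 0.358, 0.795 and 0.794 in LD7, with every SD7 library above every LD7 library, as in 11.1% of all genes tested. VIT_14s0060g00810 had 1.73, 1.42 and 1.11 FPKM in SD7 and 0.786, 1.24 and 1.56 in LD7, and those groups overlapped. None of the 3 passed the test at day 7. VIT_14s0060g00760 had a log2 difference of 0.38 ± 0.17 (SE, unadjusted p = 0.044, adjusted p = 0.32 by limma), and VIT_14s0060g00790 one of 0.43 ± 0.18 (unadjusted p = 0.039, adjusted p = 0.31). VIT_14s0060g00810 had 0.15 ± 0.19 (adjusted p = 0.77).

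The difference between the photoperiods was larger at day 21 than at day 7 for each of the 3 genes. The log2 difference of the differences was 1.58 ± 0.24 (SE, adjusted p = 0.00019) for VIT_14s0060g00760, 1.804 ± 0.26 (adjusted p = 0.00014) for VIT_14s0060g00790 and 2.01 ± 0.26 (adjusted p = 7.8e-05) for VIT_14s0060g00810. Under short days each rose between the days, by 1.57, 1.58 and 1.49 in SD21 against SD7 (adjusted p = 1.1e-05, 2.0e-05 and 3.6e-05). Under long days none was called between the days. VIT_14s0060g00810 was nearest to a call, with every LD21 library below every LD7 library, as for 14.8% of all genes tested, and a log2 difference of -0.52 ± 0.19 (unadjusted p = 0.018, adjusted p = 0.076), and with a pseudocount of 0.1 it was called lower (-1.03, adjusted p = 0.040, out of 0.040 to 0.11 over the alternatives that kept all libraries).

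The 3 genes kept similar levels to each other in SD21. Their summed FPKM was 16.8 ± 2.44 in SD21 and 1.55 ± 0.18 in LD21, with 3.80 ± 0.97 for SD7 and 2.48 ± 0.54 for LD7 (SD, n = 3). Within a library, the highest of the 3 was between 1.11 and 2.73 times the lowest. The split among them is uncertain, as whether these loci share reads was not tested. VIT_14s0060g00810 also touches the locus before it at 657005.

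Over the wider stretch, genes around them moved in both directions. From 617834 to 665339, which holds the 3 genes, no tested locus was called lower at day 21. The locus between the first and second of the 3, at 631457 to 634641, had 1.91 ± 0.32 FPKM in SD21 and 0.0433 ± 0.0388 in LD21 (SD, n = 3; log2 difference 1.47 ± 0.15, SE, adjusted p = 4.2e-06). The locus after VIT_14s0060g00810, at 661263 to 665339, was far more abundant, with 543 ± 45.0 FPKM in SD21 and 135 ± 51.0 in LD21 (2.06 ± 0.21, adjusted p = 4.6e-06). The locus at 588326 to 591231 on the other side stood at 4.89 ± 2.13 FPKM in SD21 and 59.2 ± 3.20 in LD21 (-3.41 ± 0.19, adjusted p = 7.6e-08). These 3 loci were picked after their values were seen.

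**Figure D2:**
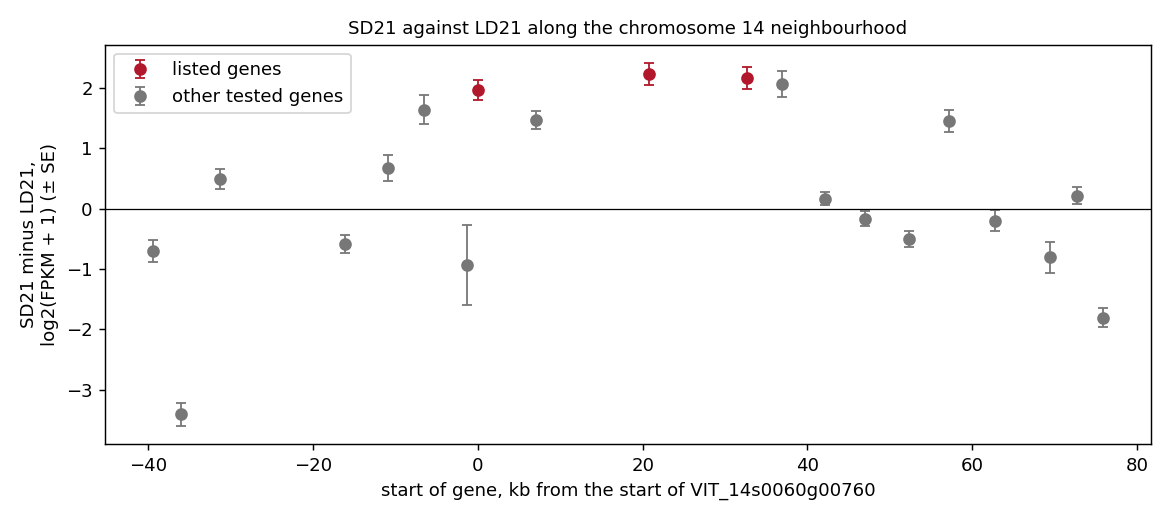
Difference of log2(FPKM + 1), SD21 minus LD21, with its SE (vertical axis) for tested genes around the chromosome 14 members, by the distance of each gene's start from that of VIT_14s0060g00760 in kb (horizontal axis). The 3 listed genes lie between 1.96 and 2.23, and other genes of the stretch lie on both sides of 0.

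VIT_03s0038g04390 was detected in SD21 only among these 12 libraries. The gene (chromosome 3, 3186259 to 3187245) had 5.07, 34.5 and 18.1 FPKM in the SD21 libraries, and was listed at 0 in all 9 libraries of LD21, SD7 and LD7. The SD21 values gave read equivalents of 21, 158 and 77. On that step, 1 read in the other 9 libraries would have been worth 0.186 to 0.293 FPKM. The step rests on only 3 libraries above 0, with the lowest whole by construction, so these read values are less sure than those of the other genes. The SD21 libraries differed 6.80-fold among themselves, and the lowest still stood clear of every other library. The gene was called higher in SD21 against LD21 (limma, adjusted p = 1.6e-05) and in SD21 against SD7 (adjusted p = 2.4e-05). It was also called in the difference between the days (adjusted p = 0.00041). All of these calls rest on the same SD21 values against groups listed at 0, so they are not separate results. The shared estimate of the spread includes those groups, which had none, and so understates the spread within SD21. With only the groups compared, the adjusted p in SD21 against LD21 was 0.0011 (limma). No fold is given against groups listed at 0. Because exactly 3 libraries reached 1 FPKM, leaving out any SD21 library put the gene under the limit for testing.

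By the likeness rule, the 2 genes whose log2(FPKM + 1) followed VIT_03s0038g04390 most closely over the 12 libraries were VIT_08s0007g07670 (chromosome 8, 21134423 to 21136523; Pearson r = 0.993) and VIT_07s0005g01950 (chromosome 7, 4390853 to 4392232; r = 0.992). VIT_08s0007g07670 had 3.94, 9.86 and 7.44 FPKM in SD21, and 0 to 0.114 in the other 9 libraries. VIT_07s0005g01950 had 2.96, 13.97 and 8.34 FPKM in SD21, and 0.0616 to 0.560 elsewhere. In SD21 both had replicate 1 lowest and replicate 2 highest, like that member, which follows largely from choosing them by correlation over these libraries. A correlation of 0.9 or more was shared by 1017 genes, and the libraries share groups, so it is a description.

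VIT_04s0023g02480 had the highest mean FPKM of the 10 genes in SD21, SD7 and LD7, and was higher in SD21 than in LD21. The gene (chromosome 4, 19034553 to 19035405) had 69.9, 41.9 and 83.7 FPKM in SD21 libraries (498, 330 and 613 reads) and 9.26, 23.7 and 5.86 in LD21 libraries (66, 162 and 35 reads). Every SD21 library lay above every LD21 library, as for 25.3% of all genes tested. The mean in SD21 was 5.04 times that in LD21. With each library left out it ran from 3.96 times (without LD21 replicate 3) to 8.62 times (without LD21 replicate 2). The log2 difference was 2.40 ± 0.75 (SE, adjusted p = 0.015, limma). Without SD21 replicate 3 (2.198, adjusted p = 0.053) or LD21 replicate 3 (2.0, adjusted p = 0.059) the call was lost, and over all libraries left out in turn the adjusted p ran from 0.0055 to 0.059.

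At day 7 this gene varied widely within each photoperiod. It had 25.0, 130 and 29.2 FPKM in SD7 libraries (232, 794 and 172 reads) and 11.2, 43.2 and 51.7 in LD7 libraries (66, 273 and 386 reads). SD7 replicate 2 held the highest value of all 12 libraries, and the groups overlapped (log2 difference 0.62 ± 0.75, SE, adjusted p = 0.76 by limma). Neither SD21 against SD7 (0.44, adjusted p = 0.63) nor LD21 against LD7 (-1.35, adjusted p = 0.23) passed. Between the days the effect differed by 1.79 ± 1.06 (SE, adjusted p = 0.18), and it was called without SD7 replicate 2 (2.53, adjusted p = 0.040, out of 0.040 to 0.33 with each library left out). An effect of the photoperiod that differs between the days is therefore not shown for VIT_04s0023g02480.

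VIT_16s0100g00380 and VIT_02s0025g04460 showed another pattern, with their lowest levels in SD7 and their highest mean levels in SD21. VIT_16s0100g00380 (chromosome 16, 15813824 to 15814917) had 2.13, 0.935 and 5.18 FPKM in SD7 libraries (31, 9 and 48 reads) and 12.0, 13.3 and 12.5 in LD7 libraries (111, 132 and 147 reads). VIT_02s0025g04460 (chromosome 2, 3928472 to 3929345) had 2.04, 0.575 and 8.41 FPKM in SD7 and 22.6, 16.01 and 8.69 in LD7. For both genes every SD7 library lay below every LD7 library, as for 13.7% of all genes tested, though for the chromosome 2 gene SD7 replicate 3 lay only just under LD7 replicate 3.

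Neither difference passed the test at day 7, where 0 of the 8 tested members were called by limma and 4 had an unadjusted p under 0.05, 2 in each direction. Of all genes tested 0.833% were called and 14.9% had an unadjusted p under 0.05. VIT_16s0100g00380 had a log2 difference of -2.02 ± 0.50 (SE, unadjusted p = 0.0020, adjusted p = 0.098). VIT_02s0025g04460 had -2.14 ± 0.65 (unadjusted p = 0.0081, adjusted p = 0.17). Over the alternatives that kept all libraries, the adjusted p ran from 0.066 to 0.12 for VIT_16s0100g00380 and from 0.15 to 0.20 for VIT_02s0025g04460. With 1 library left out it ran from 0.062 to 0.29 and from 0.069 to 0.42.

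At day 21 both genes were abundant under either photoperiod. VIT_16s0100g00380 had 30.2, 42.5 and 81.3 FPKM in SD21 libraries (339, 527 and 936 reads) and 13.6, 36.9 and 39.7 in LD21 libraries (152, 398 and 373 reads). VIT_02s0025g04460 had 28.3, 28.04 and 82.1 FPKM in SD21 and 21.4, 50.6 and 35.4 in LD21. The groups overlapped for both genes. The log2 differences in SD21 against LD21 were 0.77 for VIT_16s0100g00380 (95% interval -0.32 to 1.87, adjusted p = 0.19 by limma) and 0.25 for VIT_02s0025g04460 (-1.21 to 1.70, adjusted p = 0.75). These intervals leave room for a difference in either direction.

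Over time under short days both genes rose. In SD21 against SD7, VIT_16s0100g00380 rose by 3.85 ± 0.50 on the log2 scale (SE, adjusted p = 6.0e-05 by limma) and VIT_02s0025g04460 by 3.54 ± 0.65 (adjusted p = 0.00085). In that comparison 6 of the 8 tested members were called higher and 0 lower (0 also at an unadjusted p under 0.05). Of all genes tested, 23.4% were called higher and 37.7% lower. Of the 6, VIT_03s0038g04390, VIT_14s0060g00760 and VIT_14s0060g00790 had entered the test only through SD21, so the count is read without the limit on low values, where 7 of the 10 were called higher and 0 lower, against 20.7% and 30.9% of genes. VIT_06s0061g01390 was the added gene. The mean of VIT_16s0100g00380 in SD21 was 18.7 times that in SD7, but 13.2 times without SD21 replicate 3 and 33.5 times without SD7 replicate 3. For VIT_02s0025g04460 it was 12.6 times, but 7.66 times without SD21 replicate 3 and 35.3 times without SD7 replicate 3. In LD21 against LD7 the log2 differences were 1.05 ± 0.50 (adjusted p = 0.16) and 1.15 ± 0.65 (adjusted p = 0.24), in that order of genes. There 0 of the 8 tested members were called by limma, and 1 had an unadjusted p under 0.05. Of all genes tested 18.1% were called and 34.7% had such a p. These comparisons share their libraries with those of the photoperiods, so each value is given on its own.

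The photoperiod effect itself differed between the days for both genes, but less firmly for VIT_02s0025g04460. In that test 6 of the 8 tested members were called with a higher effect at day 21, 0 with a lower one (0 also at an unadjusted p under 0.05, limma). Higher refers to the signed difference, short less long days. For both genes that difference was larger in size at day 7 (-2.02 and -2.14) than at day 21 (0.77 and 0.25), and was called at neither day. Of all genes tested, 19.6% were called higher and 35.5% lower. The same 3 genes had entered through SD21. Without the limit on low values 6 of the 10 were called higher and 0 lower, against 17.0% and 28.8% of genes, with VIT_06s0061g01390 among them and VIT_02s0025g04460 not. The difference was 2.79 ± 0.70 (SE, adjusted p = 0.0062) for VIT_16s0100g00380, and it was called with each library left out (2.32 to 3.24). It was 2.39 ± 0.93 (adjusted p = 0.049) for VIT_02s0025g04460. That call was lost without SD21 replicate 2 or 3, LD21 replicate 1 or 3, SD7 replicate 1 or 2, or LD7 replicate 1 or 2 (adjusted p = 0.051 to 0.11), with a pseudocount of 0.1 (0.051) and without the limit on low values (0.056).

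The 2 genes had similar levels across the 12 libraries, but did not move together within every group. VIT_16s0100g00380 stood at 0.530 to 1.63 times the FPKM of VIT_02s0025g04460 in the 12 libraries, while the FPKM of each spread over a far wider range. In SD21 and in SD7, replicate 3 was the highest for both genes, and in LD21 replicate 1 was the lowest for both. In SD7 replicate 2 was the lowest for both, the same library in which VIT_04s0023g02480 was highest. Their full order of replicates was shared in SD7 and differed in SD21, LD21 and LD7. In LD7, replicate 1 was the lowest for VIT_16s0100g00380 and the highest for VIT_02s0025g04460. The 2 genes also differed in spread there, with VIT_16s0100g00380 nearly even at 12.6 ± 0.64 FPKM and VIT_02s0025g04460 at 15.8 ± 6.98 (SD, n = 3).

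**Figure D3:**
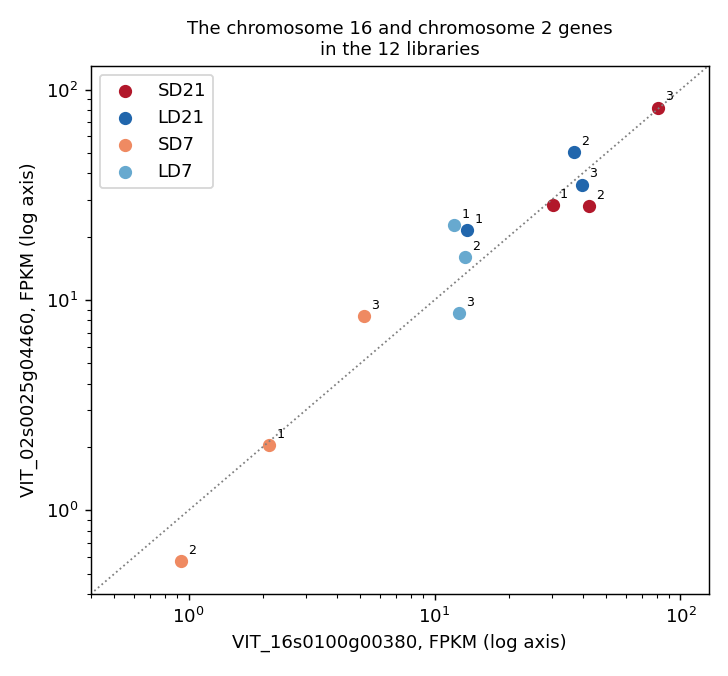
FPKM of VIT_16s0100g00380 (horizontal, log axis) against FPKM of VIT_02s0025g04460 (vertical, log axis) in the 12 libraries, coloured by group, with the replicate number beside each point and equal values on the dotted line. The SD7 libraries sit at the low end, and the SD21 and LD21 libraries intermix at the upper end.

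VIT_07s0005g01970 varied more within groups than between them. The gene (chromosome 7, 4416388 to 4417802) had 10.5, 1.85 and 2.93 FPKM in SD21 libraries (242, 47 and 69 reads) and 5.80, 0.0907 and 0 in LD21 libraries (133, 2 and 0 reads). At day 7 it had 2.85, 0.355 and 12.8 FPKM in SD7 libraries (85, 7 and 242 reads) and 5.28, 3.14 and 7.66 in LD7 libraries (100, 64 and 184 reads). In LD21 and SD7, libraries of the same group lay at both the high and the low end, and every comparison overlapped. It was called in none of the comparisons, with log2 differences of 1.37 ± 0.94 (SE, adjusted p = 0.22) in SD21 against LD21 and -0.55 ± 0.94 (adjusted p = 0.85) in SD7 against LD7 by limma. Without LD21 replicate 1 the day 21 difference was called (2.28, adjusted p = 0.044, out of 0.044 to 0.52 with each library left out).

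The chromosome 6 pair was at or near 0 in the shoot tips. VIT_06s0061g01400 (chromosome 6, 19254402 to 19255122) was listed at 0 in 11 libraries and at 0.206 FPKM in LD7 replicate 2. VIT_06s0061g01390 (19216575 to 19217622) had 0.470, 0.510 and 1.10 FPKM in SD21 libraries (5, 6 and 12 reads) and 0.188, 0.0979 and 0.337 in LD21 libraries (2, 1 and 3 reads). At day 7 it had 0, 0 and 0.114 FPKM in SD7 libraries (0, 0 and 1 read) and 0, 0.212 and 0.0898 in LD7 libraries (0, 2 and 1 reads). Every SD21 library lay above every other library, at a level of a few reads. Of all genes tested, 25.3% had every SD21 library above every LD21 library, and 25.0% above every SD7 library. The share above all other groups at once was not counted.

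Neither of the pair reached the limit for testing. In the fit without that limit, VIT_06s0061g01390 was called higher in SD21 against LD21 (log2 difference 0.47 ± 0.14, SE, adjusted p = 0.011, limma) and in SD21 against SD7 (0.69 ± 0.14, adjusted p = 0.0015). Its photoperiod effect differed between the days by 0.55 ± 0.19 (adjusted p = 0.036). An exact two-sided permutation test of SD21 against LD21 gave p = 0.10, the smallest that 3 libraries against 3 allow.

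**Figure D4:**
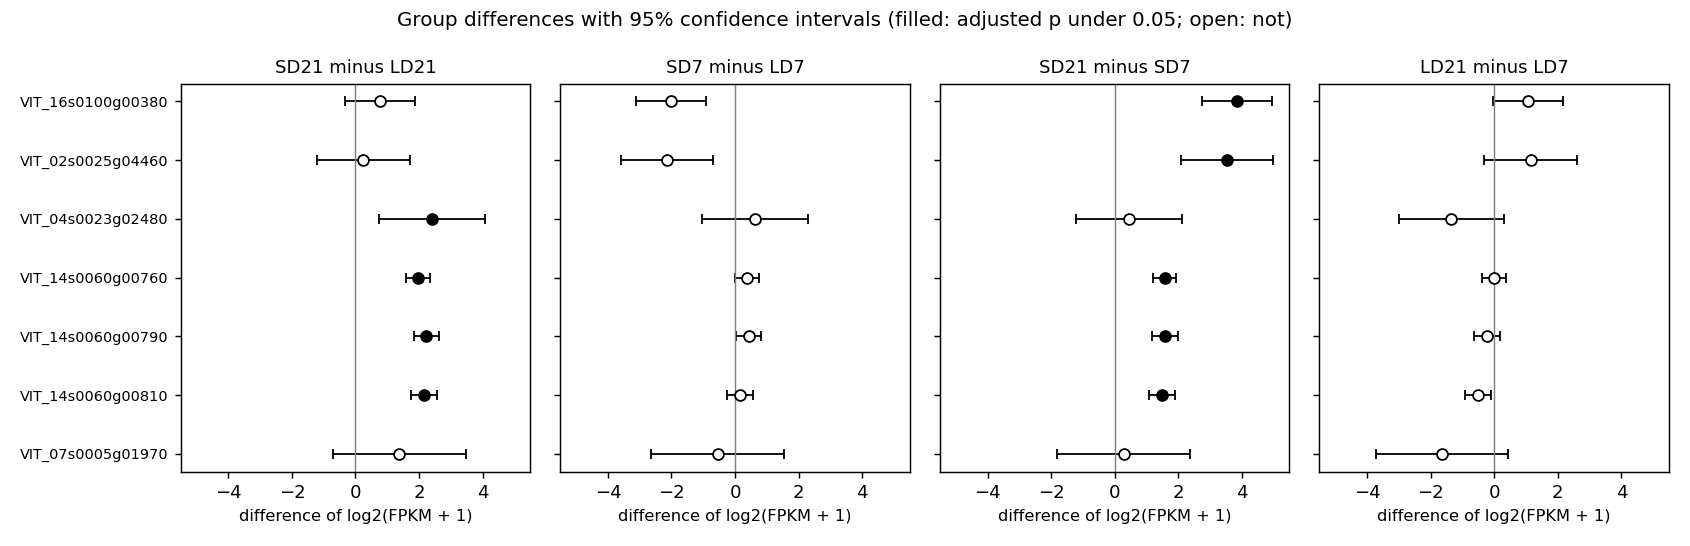
Difference of log2(FPKM + 1) with its 95% confidence interval (horizontal axis) for 7 of the tested genes (vertical axis) in SD21 minus LD21, SD7 minus LD7, SD21 minus SD7 and LD21 minus LD7. Filled points passed an adjusted p under 0.05, which VIT_04s0023g02480 and the 3 chromosome 14 genes did in SD21 minus LD21 and no gene did in SD7 minus LD7 or LD21 minus LD7; VIT_03s0038g04390 is left out because its lower groups were listed at 0.

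Set by level, the order of the groups differed between the genes. For each of the 3 chromosome 14 genes the mean FPKM ran SD21, SD7, LD7, LD21 from high to low. Their SD21 libraries all lay above those of SD7, as for 25.0% of all genes tested. For VIT_04s0023g02480 the order was the same, but every group overlapped the next. For VIT_16s0100g00380 and VIT_02s0025g04460 it ran SD21, LD21, LD7, SD7, and only SD7 was separate from its neighbour for both. For VIT_07s0005g01970 it ran LD7, SD7, SD21, LD21 with overlap throughout.

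The surroundings of the 10 genes did not move in 1 direction. Taking the 3 identifiers on each side of each gene gave 44 neighbours, of which 33 were tested. In SD21 against LD21, 11 of these were called higher and 13 lower at an adjusted p under 0.05 (limma). Of all genes tested, 24.6% were called higher and 43.7% lower. The median log2 difference was -0.14 over the tested neighbours and -0.30 over all genes tested.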

How the data were processed

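Per the labels' protocols, RNA of 12 shoot tip libraries was read for 43 bp. FPKM for every gene and library were deposited by the authors, per the file headers. The submitters' processing notes name the tools Cufflinks 2.2.1, TopHat2 2.0.13, Bowtie2 2.2.4, cutadapt 1.8.1 and FastQC 0.11.3. Genome build, annotation and strand setting are not given in the sources. FPKM values of a library fall when a few genes become very abundant.

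Files were joined by identifier. SD21 replicate 3 has a column headed as replicate 2 whose values differ from those of replicate 2. Replicates were no copies, with 0 or 1 nonzero value in common. A gene needed 1 FPKM in 3 libraries to be tested. The test on log2(FPKM + 1) used limma 3.58.1 (R 4.3.3) with a group means model over all libraries, eBayes with trend and robust, and Benjamini-Hochberg adjustment over all 21848 genes. The script was tested on simulated data. The rule for named genes took all 10 members and the 2 genes most like the member with the largest rise, and 0 tested members had a negative difference in SD21 against LD21, so none was taken for a fall. The members and lists were chosen with earlier results of these data known. The planned list of other genes of the pathway needs gene names and was not run.

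Absolute depth is unknown. Relative depth came from ratios of low genes, and a member's values were called whole where they lay within 0.03 of whole multiples of 1 step in every library. Read equivalents were worked out after seeing the data. FPKM totals ran from 982454 in LD21 replicate 2 upwards. The replicates came from separate sets of vines, and p-values measure the spread between them. Alternatives were other scalings, limits, pseudocounts and fits, the replicate number as a block and each library left out. Python 3.11.15 drew the plots with matplotlib 3.10.9.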

Additional observations from a re-analysis of the deposited data

Results flagged for a closer look

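For 6 of the 8 tested members the effect of the photoperiod differed between the days by limma. The test took the day 21 difference less the day 7 difference on log2(FPKM + 1). All 6 had a higher signed effect at day 21, which need not be larger in size, as had 19.6% of all genes tested, while 35.5% had a lower one. Of the 6, VIT_03s0038g04390, VIT_14s0060g00760 and VIT_14s0060g00790 had entered the test only through SD21. Without the limit on low values 6 of the 10 were called higher and 0 lower, against 17.0% and 28.8% of genes. VIT_06s0061g01390 was then among them and VIT_02s0025g04460 was not. VIT_16s0100g00380 had a difference of 2.79 (adjusted p = 0.0062) and VIT_02s0025g04460 of 2.39 (adjusted p = 0.049), both low in SD7 and not called at day 21. VIT_14s0060g00760, VIT_14s0060g00790 and VIT_14s0060g00810 had 1.58, 1.804 and 2.01 (adjusted p = 0.00019, 0.00014 and 7.8e-05). VIT_03s0038g04390 had 4.003 on this scale (adjusted p = 0.00041), a value set in part by the added 1, since its other groups were listed at 0. Groups of 3 libraries were not searched for single outlying samples.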

How the results depend on the processing

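Of 767 alternative values of the tested genes in the 5 comparisons, 751 kept their side of the threshold, 13 lost a call, 3 gained one and none was a called value of the other sign. With 5 FPKM or more in at least 3 libraries as the limit, 3 members were called in SD21 against LD21 in place of 5, as fewer were tested. With a pseudocount of 0.1, 1 member was called in LD21 against LD7 in place of 0. With 1 library left out, the members called numbered 3 to 6 in SD21 against LD21, 4 to 6 in the difference between the days, 5 to 6 in SD21 against SD7, and 0 in SD7 against LD7 and in LD21 against LD7. The count of 3 was without SD21 replicate 3, where VIT_03s0038g04390 was no longer tested and VIT_04s0023g02480 lost its call. VIT_02s0025g04460 in SD21 against SD7 ran from 2.95 to 4.24 and stayed called. Over all genes, calls in SD7 against LD7 numbered 182 and ran from 0 to 209 over the alternatives, and those in LD21 against LD7 numbered 3963 and ran from 1358 to 4408. The deviations of same-numbered libraries had correlations of -0.13 to 0.20, with 2 of 18 over 0.1, the highest for replicate 1 of SD21 and LD21. Differently numbered libraries were not compared, so these values cannot settle whether the numbers pair the libraries. In the fit with a replicate block, the difference between the days of VIT_02s0025g04460 lost its call (adjusted p = 0.062), and the members called were 5, 0, 5, 0 and 6 in SD21 against LD21, SD7 against LD7, the difference between the days, LD21 against LD7 and SD21 against SD7. For the low members, a few reads limit what can be seen.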
